A study of Rattus norvegicus with 18 samples.

Results

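Rat astrocytes kept for 24 h with interferon gamma (IFNγ) alone were set against astrocytes kept with vehicle. The 6 libraries described here, 3 with IFNγ and 3 controls, are all the libraries of those groups among 18 in the series, and were chosen by their labels. The IFNγ group received no other agent. The control group received PBS. Both hold primary astrocytes purified by immunopanning from postnatal day 5 rat brain. The labels do not give strain, sex or pooling of animals. The labels give an IFNγ dose of 3 ng per ml, whereas the legend the authors put in their workbook says 1000 U per ml, so no result is tied to a dose. A further 3 libraries, of astrocytes with interferon beta (IFNβ) alone, at 1000 U per ml by the labels, show where IFNγ differs from it. The remaining groups received TNFα, IL1α and C1q together, without interferon or with IFNγ or IFNβ. The labels give 24 h and postnatal day 5 for these groups too. All groups share the estimate of the spread in the fit. Those with TNFα, IL1α and C1q, without interferon or with IFNγ, also serve in the interaction values given last. No label says that the 3 libraries of a group are separate cultures or animals, so a p-value here measures the spread between libraries, which may be technical.

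IFNγ binds the receptor chains IFNGR1 and IFNGR2, whose kinases JAK1 and JAK2 start a signal that reaches gamma-activated sites (GAS) in promoters. A product of this first step, the transcription factor IRF1, acts on further genes through interferon-stimulated response elements (ISRE). Interferon beta uses another receptor and acts mainly through a complex with STAT2 and IRF9 that binds the ISRE. In brain, IFNγ comes chiefly from T cells and natural killer cells, and astrocytes are among the cells that carry its receptor.

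Values are FPKM, fragments per kilobase of transcript with the total of mapped fragments scaled out, as deposited by the authors. Sequencing depth is not known from FPKM. Of 10431 named genes, 10296 had 1 FPKM or more in at least 3 of the 18 libraries and were tested with limma on log2(FPKM + 1). A log2 change is the IFNγ mean minus the control mean on that scale, which understates changes of low genes, and a gene rose or fell, or was called, where its Benjamini-Hochberg adjusted p was under 0.05. Correlation of log2 values was 0.983 to 0.987 within IFNγ libraries, 0.982 to 0.985 within control libraries and 0.950 to 0.957 between the groups. The first principal component of these 6 libraries held 62.3% of the variance, and it set the IFNγ libraries apart from the controls.

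All 9 astrocyte markers on a list were measured, with summed levels of 2883 to 3110 FPKM with IFNγ and 3003 to 3285 FPKM in controls. Of these, 2 rose, Aldh1l1 (0.34) and Aldoc (0.26), and 2 fell, Slc1a2 (-0.59) and S100b (-0.36), so similar sums hide changes in both directions. For microglia and macrophages 4 of 10 markers were measured and none was called by limma or passed an unadjusted p of 0.05, with sums of 40.5 to 52.6 FPKM with IFNγ and 31.5 to 55.1 FPKM in controls. Of 4 measured precursor markers of oligodendrocytes none was called by limma or passed an unadjusted p of 0.05, and Olig1 stood at 813, 706 and 772 FPKM with IFNγ, against 902, 719.9 and 744 FPKM in controls. Oligodendrocyte markers summed to 184.3 to 218.6 FPKM with IFNγ and 136.6 to 173.3 FPKM in controls, and 1 of 4, Cnp, rose by 0.37. Neuronal markers summed to 26.7 to 35.8 FPKM with IFNγ and 40.62 to 50.25 FPKM in controls, and 2 of 4 fell, Snap25 by 0.51 and Map2 by 0.49 on the log2 scale. In such bulk RNA, fewer cells of a type and less RNA per cell cannot be told apart. None of 6 T and NK cell markers, Ifng included, was among the measured genes. Those genes reach a mean of at least 0.501 FPKM, so low levels of these markers cannot be seen.

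Limma called 1470 genes (14.3%) with IFNγ over control, 732 higher (7.11%) and 738 lower (7.17%). Counts of called members in the gene lists below are to be set beside these shares. Large changes were mostly rises: 253 genes (2.46%) rose and 37 (0.359%) fell by a log2 change of 1 or more, and at 4 or more there were 40 rises and 1 fall. After median-ratio scaling of the libraries the called genes split into 857 higher and 556 lower, so the balance of small rises and falls depends on the scaling. The median change over all genes tested was -0.05, and the libraries of the groups did not overlap for 2816 genes (27.4%). At a threshold of 0.05 the authors' deposited table calls 1361 of the same genes, 838 higher and 523 lower. Of these, 1101 were also called here in the same direction, 260 were not called here, and none was called in the opposite direction. A further 369 genes were called here only. Cxcl9, Irf8 and Tnfsf10, described below, are among them, with deposited log2 changes of 0.42, 0.43 and 0.30. So are Uba7 (0.25), Acod1 (0.17), Tnf (0.43), Snhg4 (-0.43) and LOC100910558 (-0.08). For RT1-CE7, RT1-Bb and Bsg the authors give no adjusted p, and their deposited log2 changes are 0.08, 0.37 and -0.15.

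**Figure D1:**
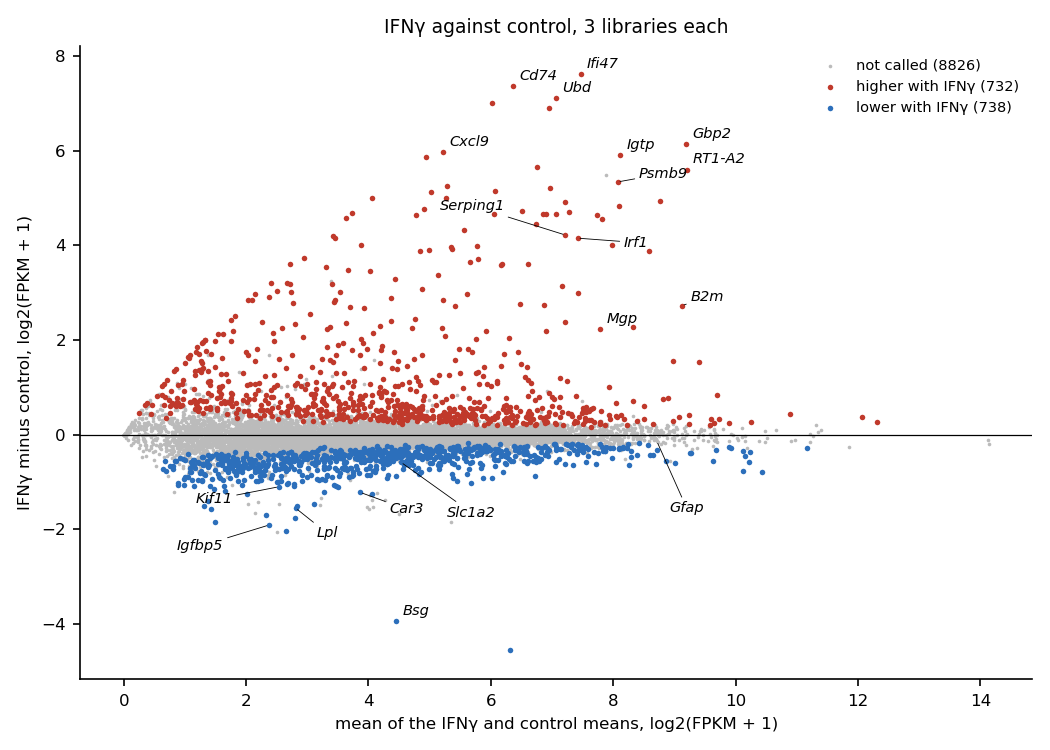
Each point is one of 10296 genes, with the level averaged over the IFNγ and control means on the horizontal axis and the IFNγ minus control change on the vertical axis, both on the log2(FPKM + 1) scale. Red points rose (732), blue points fell (738), and the rises reach 7.61 (Ifi47) while the lowest fall is Marcksl1 at -4.55.

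The 12 highest changes under the naming rule were those of Ifi47, Cd74, Ubd, RGD1309362, MGC108823, Gbp2, Cxcl9, Igtp, RT1-Da, RT1-CE7, RT1-A2 and Psmb9. RGD1309362, a symbol whose role no source used here describes, was listed at 0 in all 3 controls and stood at 109.8, 142 and 131 FPKM with IFNγ. MGC108823, likewise undescribed, had 175, 293 and 261 FPKM with IFNγ, against 1.78, 1.20 and 0.324 FPKM in controls. RT1, Gbp, Ifit and Oas genes belong to families of near-identical copies, so a value of a single member is uncertain wherever one is given.

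Genes of the signalling chain changed unevenly. Of 13 receptor, JAK and STAT genes tested, 8 rose, none fell and the median change was 0.28. Stat2, a transcription factor of type I interferon signalling, had 143, 127 and 131 FPKM with IFNγ, against 36.2, 39.5 and 41.0 FPKM in controls. Its log2 change was 1.75 (SE 0.07, limma adjusted p = 7.99e-13), and the groups lay far apart. The ligand-binding chain Ifngr1 had 33.7, 30.8 and 37.7 FPKM with IFNγ, against 27.9, 25.3 and 23.7 FPKM in controls, a change of 0.39 (SE 0.08), and the kinase Jak2 changed by 0.54 (SE 0.11). The other receptor chain, Ifngr2, gave 0.19 (limma adjusted p = 0.110) and the kinase Jak1 0.06 (limma adjusted p = 0.659). With only the IFNγ and control libraries in the fit, 4 of the 13 rose, and Ifngr1 was no longer called (limma adjusted p = 0.0601). The type I receptor gene Ifnar1 gave -1.22 without a call, with 20.3, 0.799 and 18.4 FPKM with IFNγ, against 18.7, 22.8 and 19.2 FPKM in controls. Its lowest value belonged to the IFNγ 2 library alone.

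Feedback on this pathway rose in 2 of 15 genes tested. Socs1, which blocks JAK kinases, had 16.7, 19.7 and 14.2 FPKM with IFNγ, against 4.55, 3.30 and 3.48 FPKM in controls, a change of 1.90 (SE 0.24, limma adjusted p = 1.63e-05). Usp18, an ISG15 protease that also damps the type I receptor, had 21.3, 17.8 and 14.9 FPKM with IFNγ, against 2.54, 1.83 and 0.937 FPKM in controls. No overlap between groups was seen in either gene. Socs3 (0.04, limma adjusted p = 0.922) and the phosphatase Ptpn2 (-0.08, limma adjusted p = 0.708) gave no call.

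Of 8 interferon regulatory factors tested, 6 rose. Irf1 had 308, 336 and 329 FPKM with IFNγ, against 15.3, 19.0 and 17.9 FPKM in controls, a change of 4.15 (SE 0.15, limma adjusted p = 4.45e-13). Irf8, best known from myeloid cells, was near 0 in controls: it had 14.03, 11.4 and 14.5 FPKM with IFNγ, against 0.253, 0 and 0 FPKM in controls. Irf9, the DNA-binding partner of STAT2, rose by 2.03. Irf7, the amplifier of type I interferon, had 18.3, 16.3 and 9.43 FPKM with IFNγ, against 8.02, 5.47 and 2.995 FPKM in controls. Its groups did not overlap, yet the call was lost with only the compared groups in the fit (limma adjusted p = 0.056), where 3 of the 8 rose. Irf3 gave -0.01 (limma adjusted p = 0.977).

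The promoters of 4 of these responding genes, including the peptide transporter gene Tap1 and the GTPase gene Gbp2 described below, show the letters that the known factors bind. The 200 bases before the start of each are printed 5′ to 3′ on the gene's strand, from RefSeq on GRCr8, with matches to GAS (TTCNNNGAA) or ISRE (GAAA, 2 bases of any kind, GAAA), searched on both strands, in capitals. The regions are chr10:38417735-38417934 on the plus strand for Irf1, chr2:234005527-234005726 on the plus strand for Gbp2, chr20:4668544-4668743 on the minus strand for Tap1 and chr10:5389374-5389573 on the plus strand for Socs1.
Irf1: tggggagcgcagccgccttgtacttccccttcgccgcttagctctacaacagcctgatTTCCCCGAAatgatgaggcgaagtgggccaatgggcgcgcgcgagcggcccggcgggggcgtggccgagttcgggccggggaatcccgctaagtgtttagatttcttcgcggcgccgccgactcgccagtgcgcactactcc
Gbp2: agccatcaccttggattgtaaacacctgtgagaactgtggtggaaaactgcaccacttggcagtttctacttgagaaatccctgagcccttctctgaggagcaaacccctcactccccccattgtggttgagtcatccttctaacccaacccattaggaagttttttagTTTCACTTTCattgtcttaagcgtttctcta
Tap1: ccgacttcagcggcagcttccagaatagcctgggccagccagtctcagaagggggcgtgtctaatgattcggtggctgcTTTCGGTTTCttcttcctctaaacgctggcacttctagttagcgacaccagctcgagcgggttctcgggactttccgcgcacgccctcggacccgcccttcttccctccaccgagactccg
Socs1: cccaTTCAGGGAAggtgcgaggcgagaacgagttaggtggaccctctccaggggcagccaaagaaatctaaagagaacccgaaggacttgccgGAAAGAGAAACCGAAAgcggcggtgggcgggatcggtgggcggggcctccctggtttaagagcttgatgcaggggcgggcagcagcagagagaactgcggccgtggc
Positions count from the transcription start, with bases before it negative. Irf1 had a GAS match at -142. In Gbp2 an ISRE match stood at -31, and in Tap1 one stood at -121. Socs1 had a GAS match at -196 and ISRE matches at -107 and -101 that overlap each other. In the whole window of 250 bases before and 50 after the start, Cxcl9 had a GAS match at 32 bases after the start, and Cd74 had neither motif. A match describes letters and shows no binding.

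Across genes, a promoter was found by symbol for 182 of the 253 genes that rose by 1 or more. Of these promoters 25 (13.7%) held GAS and 51 (28.0%) held ISRE. Among the 552 of 738 falling genes with a promoter the shares were 4.89% and 1.27%, and among 7840 tested genes with a promoter 6.40% and 2.88%. Of all 24206 single promoters in the RefSeq table, 8.56% held GAS and 3.74% ISRE. Since a good part of the genes had no entry, these shares are void as a check of the whole sets and describe the matched genes. For 116 of the 182 neither motif was in this window.

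Immune GTPases act on vacuoles and membranes that enclose intracellular pathogens. All 6 tested rose, with a median change of 5.18. Gbp2 had 1162, 1139.9 and 1155 FPKM with IFNγ, against 17.0, 17.6 and 12.1 FPKM in controls, a 74.1-fold ratio of means and a log2 change of 6.14 (SE 0.10, limma adjusted p = 4.12e-18). Ifi47 was at 316, 368 and 369 FPKM with IFNγ, against 1.36, 0.944 and 0.262 FPKM in controls, a change of 7.61 (SE 0.18). Each IFNγ value of these genes was many times each control value. Igtp had 542, 524 and 562 FPKM with IFNγ, against 9.68, 7.85 and 6.86 FPKM in controls. Irgm rose by 4.45, Gbp5 by 3.71 and Gbp4 by 3.01.

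MHC class I presents cytosolic peptides to CD8 T cells, and most genes of its supply line rose with IFNγ. Of 34 class I genes tested, 28 rose and none fell, with a median change of 3.63. The classical heavy chain RT1-A2 had 1188, 1124 and 1145 FPKM with IFNγ, against 21.6, 23.6 and 23.3 FPKM in controls, a change of 5.60 (SE 0.07, limma adjusted p = 2.04e-19). B2m, the light chain shared by all class I molecules, had 842, 1110.1 and 959 FPKM with IFNγ, against 128, 159 and 149 FPKM in controls, a change of 2.73 (SE 0.10). Its spread was wider with IFNγ, but the groups did not overlap. RT1-CE7 had 200.5, 219 and 209 FPKM with IFNγ, against 0, 9.02 and 6.33 FPKM in controls, so its change of 5.65 rests partly on a control listed at 0. The 6 genes not called included Fcgrt, the neonatal Fc receptor (-0.07), and Cd1d1, a lipid-presenting chain (-0.11). Also among them, RT1-N1 was listed at 0 in IFNγ 1 and all controls, while IFNγ 2 and IFNγ 3 had 27.7 and 28.7 FPKM.

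Peptides for class I are cut by the immunoproteasome and pumped into the endoplasmic reticulum by TAP. All 5 immunoproteasome and PA28 genes rose. The catalytic subunit Psmb9 had 523, 544 and 513 FPKM with IFNγ, against 12.2, 13.4 and 10.6 FPKM in controls, a change of 5.34 (SE 0.08). Psmb8 reached 551, 539.9 and 495 FPKM with IFNγ, against 14.6, 19.3 and 19.0 FPKM in controls, and Psmb10 had 493, 479 and 454 FPKM with IFNγ, against 24.3, 29.2 and 33.5 FPKM in controls. The PA28 subunits Psme1 (2.28) and Psme2 (2.39) had smaller changes, and Psme1 had 534, 535 and 520.1 FPKM with IFNγ, against 97.1, 116 and 114 FPKM in controls. Of 8 loading genes 7 rose. Tap1 had 264, 256 and 251 FPKM with IFNγ, against 8.96, 9.23 and 9.62 FPKM in controls, a change of 4.65 (SE 0.09), and Tap2 changed by 2.30. The tapasin gene Tapbp rose by 2.74, the trimming peptidase Erap1 by 1.46 and the chaperone Pdia3 by 0.74, while the general chaperone Canx gave -0.04 without a call. Ubd, a ubiquitin-like protein that delivers substrates to the proteasome, had 221, 285 and 288 FPKM with IFNγ, against 1.14, 1.45 and 0.327 FPKM in controls.

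The constitutive proteasome moved far less than the immunoproteasome. Of 31 subunits tested, 9 rose, none fell, and the median was 0.13. Psma7, a ring subunit, led with 408, 405 and 374 FPKM with IFNγ, against 225, 229 and 268 FPKM in controls, a change of 0.72 (SE 0.08). The catalytic subunits that PSMB8 to PSMB10 replace gave 0.08 for Psmb5 and 0.11 for Psmb6 without a call (limma adjusted p = 0.553 and 0.400) and 0.23 for Psmb7, which rose. The count of 9 was 5 with only the compared groups in the fit and 5 without IFNγ 2.

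MHC class II presents peptides to CD4 T cells and is usually a feature of professional antigen-presenting cells. Of 14 class II genes tested, 10 rose and 1 fell. Ciita, the master regulator of class II, was listed at 0 in every control and at 1.67, 0.872 and 1.24 FPKM with IFNγ. Cd74, the invariant chain, was listed at 0 in every control and at 168, 160.0 and 160.1 FPKM with IFNγ. The class II chains RT1-Ba, RT1-Bb and RT1-Db1 were likewise listed at 0 in all controls. With IFNγ, RT1-Ba had 34.0, 31.1 and 28.3 FPKM, RT1-Bb had 21.0, 24.0 and 23.4 FPKM and RT1-Db1 had 25.6, 26.2 and 22.1 FPKM. RT1-Da had 59.0, 62.9 and 56.3 FPKM with IFNγ, against 0, 0.0862 and 0 FPKM in controls. No fold is given against a group at 0. Because of these zeros the list's median depends on the pseudocount: it was 2.48 with 1 and 5.04 with 0.1. The peptide exchange genes RT1-DMa and RT1-DMb rose, with RT1-DMa changing by 1.52, and so did the processing protease Ctss, with 10.8, 10.6 and 10.1 FPKM with IFNγ, against 0.0669, 0.135 and 0.599 FPKM in controls. Ifi30, a lysosomal thiol reductase, was the one that fell (-0.38). The constitutive promoter factors Rfx5 (-0.21), Rfxank (-0.15) and Rfxap (0.07) were not called. Beside this result, none of the 4 measured myeloid markers was called. Cd68 had 31.8, 47.9 and 39.6 FPKM with IFNγ and 29.4, 44.4 and 54.1 FPKM in controls, and Aif1 had 1.84, 1.93 and 0.916 FPKM with IFNγ and 0.594, 2.35 and 0.326 FPKM in controls. Fcer1g had 3.94, 1.69 and 3.16 FPKM with IFNγ and 0.726, 3.25 and 0.677 FPKM in controls, a change of 0.72. Tyrobp had 2.98, 1.05 and 2.22 FPKM with IFNγ and 0.825, 1.60 and 0 FPKM in controls, a change of 0.82. A small myeloid share that differs between the groups cannot be told from these low values. Their part in it was not tested.

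**Figure D2:**
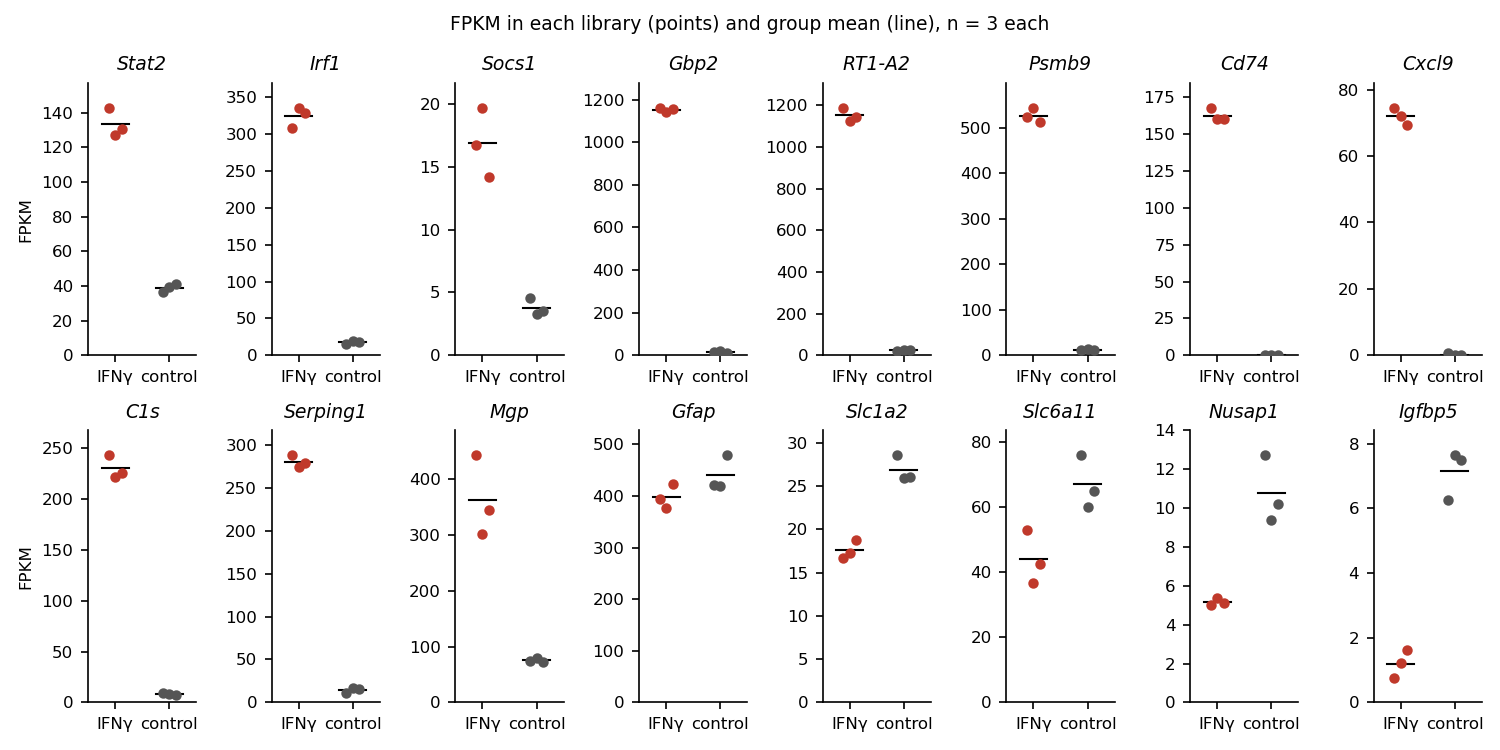
Each panel gives the FPKM of one gene in the 3 IFNγ libraries (red) and the 3 control libraries (grey), with a line at each mean and an axis that starts at 0. The groups are far apart for the signalling, GTPase, presentation and complement genes, overlap for Gfap, and lie lower with IFNγ for Slc1a2, Slc6a11, Nusap1 and Igfbp5.

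Of 11 complement components and regulators tested, from the classical and alternative pathways, 8 rose and 1 fell (median 2.20). C1s, a protease of the C1 complex, had 243, 222 and 226 FPKM with IFNγ, against 9.49, 8.26 and 6.84 FPKM in controls, a change of 4.66 (SE 0.08, limma adjusted p = 8.49e-18). Its partner C1r had 143, 126 and 129.6 FPKM with IFNγ, against 9.70, 10.6 and 9.82 FPKM in controls. The next protease, C2, had the lowest control level of the 3, with 137, 117 and 133 FPKM with IFNγ, against 2.44, 3.10 and 2.56 FPKM in controls. The C1 inhibitor Serping1, which restrains C1r and C1s, had 288, 274 and 278 FPKM with IFNγ, against 10.4, 17.0 and 15.7 FPKM in controls, a change of 4.22 (SE 0.12). C4a changed by 2.20 and Cfb, of the alternative pathway, by 2.26. C3, the central component, stayed low: 3.995, 3.40 and 3.06 FPKM with IFNγ, against 0.923, 0.965 and 1.18 FPKM in controls, a change of 1.14 (SE 0.17). Cd59, an inhibitor of membrane attack, changed by -0.69, and the clusterin gene Clu gave 0.10 (limma adjusted p = 0.570).

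Of 20 chemokine genes tested, 12 rose and none fell (median 0.94). The ligands of CXCR3, a receptor on activated T cells, led. Cxcl9 had 74.6, 72.1 and 69.2 FPKM with IFNγ, against 0.566, 0 and 0 FPKM in controls. Cxcl10 had 720.4, 1064 and 750.2 FPKM with IFNγ, against 36.6, 31.3 and 15.8 FPKM in controls, a change of 4.93 (SE 0.25), and Cxcl11 had 45.7, 53.5 and 54.6 FPKM with IFNγ, against 2.47, 1.28 and 0.174 FPKM in controls. Every IFNγ value of the 3 ligands was above every control value. Of CC chemokines, Ccl19, a ligand of CCR7, was listed at 0 in controls and at 11.5, 9.41 and 12.7 FPKM with IFNγ, and Ccl5 had 27.9, 30.7 and 27.4 FPKM with IFNγ, against 2.89, 2.18 and 0.580 FPKM in controls. Cxcl16, a membrane-bound chemokine already present in controls, had 93.5, 98.1 and 105 FPKM with IFNγ, against 20.5, 20.9 and 21.0 FPKM in controls. Ccl2, which draws monocytes, rose by 1.55 (SE 0.16). Neutrophil ligands were mixed: Cxcl1 rose by 1.02, while Cxcl2 (0.13, limma adjusted p = 0.635) and Cxcl3 (0.33, limma adjusted p = 0.205) were not called.

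Cytokine and receptor genes rose in 13 of 37 tested, with 1 lower (median 0.21). Il18bp, which neutralises the IFNγ inducer IL18, had 77.2, 72.4 and 69.9 FPKM with IFNγ, against 1.32, 2.19 and 0.721 FPKM in controls, a change of 4.99 (SE 0.19). Tnfsf10, the death ligand TRAIL, had 8.66, 8.74 and 8.16 FPKM with IFNγ, against 0, 0.0850 and 0 FPKM in controls. Il12rb1, a receptor chain for IL12, was listed at 0 in controls and at 3.23, 2.62 and 3.16 FPKM with IFNγ. Il15, which sustains natural killer and CD8 T cells, had 7.92, 9.85 and 5.35 FPKM with IFNγ, against 0, 1.47 and 1.91 FPKM in controls, and Tnf had 1.52, 2.92 and 3.61 FPKM with IFNγ, against 0.347, 0.808 and 0.780 FPKM in controls. These last levels were low in both groups. Tgfb2, a transforming growth factor, fell by 0.69 on the log2 scale.

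Adhesion, checkpoint and costimulation genes rose in 9 of 17 tested, with none lower (median 0.47). Icam1, a ligand of leukocyte integrins, had 56.6, 55.1 and 53.7 FPKM with IFNγ, against 19.8, 22.2 and 26.02 FPKM in controls, a change of 1.25 (SE 0.09). Vcam1, another such ligand, had 189.7, 222 and 215 FPKM with IFNγ, against 94.7, 96.6 and 91.6 FPKM in controls. In both, every IFNγ value was above every control value. Cd274, the checkpoint ligand PD-L1, had 2.60, 1.91 and 3.19 FPKM with IFNγ, against 0, 0.745 and 0 FPKM in controls. Lgals9, a galectin, changed by 3.02 and the secreted Lgals3bp by 2.76. The costimulators Cd40 (0.38, limma adjusted p = 0.168) and Cd80 (0.20, limma adjusted p = 0.460) were not called.

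Antiviral effectors rose in 28 of 32 genes tested, with none lower (median 2.07). Bst2, which tethers budding virions, had 26.2, 18.1 and 14.9 FPKM with IFNγ, against 0.437, 0 and 0 FPKM in controls. Isg15, a ubiquitin-like modifier, had 140.4, 136 and 118 FPKM with IFNγ, against 13.1, 10.6 and 7.15 FPKM in controls, a change of 3.59 (SE 0.17). Ifit1, which binds viral RNA, had 19.4, 16.7 and 18.03 FPKM with IFNγ, against 1.82, 1.54 and 0.278 FPKM in controls. The groups stayed apart in all 3. Rtp4 changed by 3.87 and Uba7, the enzyme that activates ISG15, by 3.18. Of 13 RNA and DNA sensors 8 rose: Dhx58 by 2.05, Ddx58 (RIG-I) by 1.67, Ifih1 (MDA5) by 1.34 and Tlr2, a sensor of bacterial lipopeptides, by 1.41. The adaptors Mavs (-0.15) and Myd88 (-0.08) were not called. Of 12 PARP genes and partners 6 rose, led by Parp9, which had 80.3, 89.6 and 87.4 FPKM with IFNγ, against 10.3, 9.29 and 10.5 FPKM in controls, its partner Dtx3l (2.89) and Parp14 (2.70), while the DNA repair enzyme Parp1 gave 0.10 without a call. Of 26 TRIM genes 6 rose, with Trim21, an antibody receptor of the cytosol, at 2.02 and Trim25, a ligase of RIG-I, at 1.59. The 2 TRIM falls are not stable: neither was called after median-ratio scaling, with only the compared groups in the fit, or without any single IFNγ library or control 3, and 1 was called without control 2.

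Genes of cell death rose in 14 of 30 tested, with none lower (median 0.32). Casp1, a caspase of pyroptosis, was listed at 0 in controls and at 3.59, 7.81 and 8.22 FPKM with IFNγ, and so was its adaptor Pycard, at 2.41, 1.64 and 2.36 FPKM with IFNγ. Casp12, another caspase, had 4.12, 3.39 and 4.57 FPKM with IFNγ, against 0, 0 and 0.478 FPKM in controls. Gsdmd, which forms the pore, had 37.7, 40.3 and 34.2 FPKM with IFNγ, against 14.4, 15.1 and 17.2 FPKM in controls, a change of 1.21 (SE 0.10). Survival genes rose as well: Birc3, an inhibitor of apoptosis, by 1.24 and Cflar, which blocks caspase-8, by 1.08. The apoptotic caspases Casp8 (0.07) and Casp9 (-0.02) were not called. In the NF-kB list 6 of 19 rose, led by the TNF-induced gene Tnfaip2, with 42.8, 41.9 and 49.5 FPKM with IFNγ, against 6.37, 7.63 and 8.20 FPKM in controls. The subunits Nfkb1 and Nfkb2 changed by 0.44 and 0.48, and the feedback inhibitor Nfkbia gave 0.18 (limma adjusted p = 0.241).

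Enzymes of tryptophan, arginine and nitric oxide metabolism moved both ways, with 6 higher and 4 lower of 18 tested. Kyat3, a kynurenine aminotransferase, had 43.8, 46.9 and 37.1 FPKM with IFNγ, against 8.44, 7.35 and 8.42 FPKM in controls. Nos2, the inducible nitric oxide synthase, stayed low: 2.42, 3.80 and 3.16 FPKM with IFNγ, against 0.506, 0 and 0.299 FPKM in controls. Ass1, which remakes arginine, had 6.62, 8.04 and 13.2 FPKM with IFNγ, against 1.73, 1.98 and 2.67 FPKM in controls, and Acod1, which makes itaconate, had 2.88, 2.62 and 2.04 FPKM with IFNγ, against 0.122, 0 and 0 FPKM in controls. Qprt, which removes the kynurenine product quinolinate, fell to 2.33, 3.76 and 2.29 FPKM with IFNγ, against 4.27, 7.22 and 8.77 FPKM in controls, and Afmid, the kynurenine formamidase, fell by 0.86 on the log2 scale. The 4 falls were 1 with only the compared groups in the fit, 2 after median-ratio scaling and 2 without IFNγ 1, IFNγ 2 or control 2. The tetrahydrobiopterin enzyme Gch1 gave -0.25 (limma adjusted p = 0.430).

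Iron genes also moved both ways, 3 higher (15.8%) and 5 lower (26.3%) of 19, against 7.11% and 7.17% of all genes tested. Cp, the ferroxidase ceruloplasmin, had 132, 140.0 and 146 FPKM with IFNγ, against 52.1, 56.8 and 45.1 FPKM in controls, and the iron carrier Tf rose by 0.61. Tfrc, the receptor for iron-loaded transferrin, fell to 38.3, 45.5 and 42.8 FPKM with IFNγ, against 68.8, 86.2 and 55.8 FPKM in controls. The ferritin light chain Ftl1 fell by 0.57 on the log2 scale. The 5 falls were 3 without IFNγ 1 or control 3 and 3 with only the compared groups in the fit. Lysosomal genes had 2 higher and 5 lower of 23: Ctss rose by 3.20 and Ctsz by 0.38, while the protease Ctsd fell to 541, 504 and 537 FPKM with IFNγ, against 669.8, 684 and 725 FPKM in controls. The 5 lysosomal falls were 3 after median-ratio scaling or with only the compared groups in the fit, 2 without IFNγ 2 and 3 without IFNγ 3, control 2 or control 3.

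Of 27 respiratory chain subunits none was called by limma, and 3 were lower at an unadjusted p under 0.05 (median -0.08). Aminoacyl tRNA synthetases had 2 higher and 5 lower of 20 (over all genes tested, 7.11% were higher and 7.17% lower). The tryptophan enzyme Wars, a known interferon-induced gene, had 87.6, 85.7 and 84.6 FPKM with IFNγ, against 48.6, 58.1 and 70.2 FPKM in controls, and Kars had 122, 125 and 125 FPKM with IFNγ, against 69.7, 70.6 and 69.5 FPKM in controls, while Eprs fell by 0.38 on the log2 scale. After median-ratio scaling the count was 4 higher and 2 lower, and with only the compared groups in the fit 2 higher and 2 lower. The 5 falls were 8 without control 1, 3 without IFNγ 2 and 2 without IFNγ 3, control 2 or control 3.

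**Figure D3:**
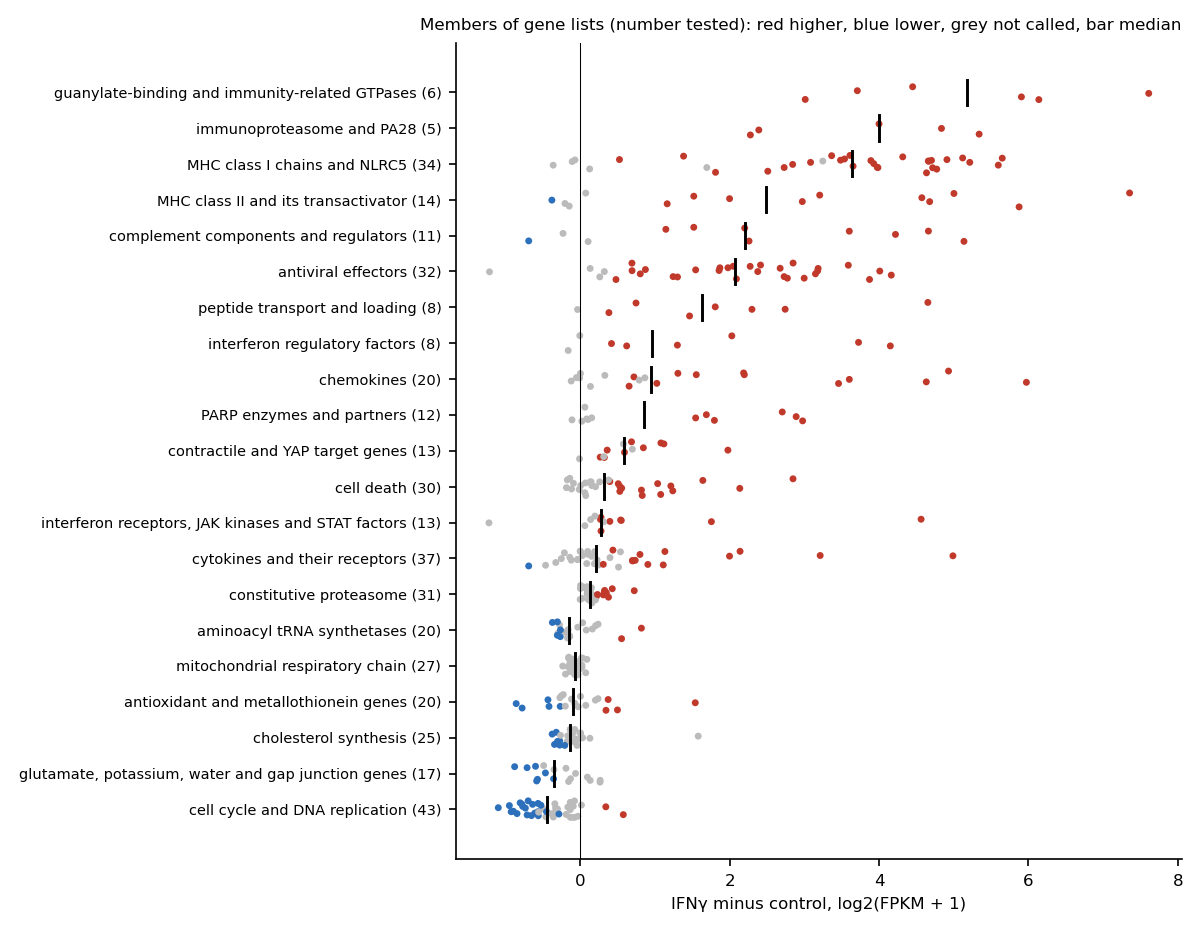
Each point is a tested gene of a list, placed by its IFNγ minus control change on the log2(FPKM + 1) scale, red where it rose, blue where it fell and grey where it was not called, with a black bar at the list median. Medians run from 5.18 for the immune GTPases to -0.45 for the cell cycle genes.

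Genes that define reactive astrocytes did not move as one. On the pan-reactive list 8 of 13 rose and 1 fell (median 0.47). Cxcl10 and Cp, already given above, are among the 8. The fall was Hspb1 (-1.46), whose call was lost with only the compared groups in the fit (limma adjusted p = 0.076). The intermediate filament gene Vim had 606, 575 and 625 FPKM with IFNγ, against 365, 300.3 and 391.9 FPKM in controls, a change of 0.78 (SE 0.08). Gfap, the other filament gene and the usual mark of reactivity, had 394, 377 and 424 FPKM with IFNγ, against 421, 419 and 479.7 FPKM in controls, a change of -0.14 (SE 0.08, limma adjusted p = 0.296) with overlapping groups. S1pr3, a sphingosine phosphate receptor, had 34.0, 28.3 and 34.96 FPKM with IFNγ, against 8.65, 10.5 and 12.3 FPKM in controls. Timp1, an inhibitor of metalloproteinases, had 343, 316 and 319 FPKM with IFNγ, against 148, 166 and 171 FPKM in controls. Lcn2, the iron-binding lipocalin, had 119, 129 and 131 FPKM with IFNγ, against 67.9, 91.2 and 106 FPKM in controls. Its change of 0.53 was 0.36 without control 1, where it was not called (limma adjusted p = 0.0754), nor was it without IFNγ 3 (limma adjusted p = 0.0548). The list's count of 8 was 5 without control 1, without IFNγ 3 or with only the compared groups in the fit. On the A1 list 8 of 10 rose and 2 fell, but Gbp2, RT1-A2, Psmb8, Serping1 and C3 on it are already given above. The others that rose were Amigo2, a synaptic adhesion gene (0.99), Srgn (0.84) and Fkbp5 (0.28), and Fbln5 (-0.90) and Ugt1a6 (-0.58) fell. On the A2 list 1 of 9 rose, Tm4sf1 (0.77), a share of 11.1% against 7.11% of all genes tested. The 1 rise on the A2 list was 2 without IFNγ 2, after median-ratio scaling or with a pseudocount of 0.1, and 3 without control 3.

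Transporters and channels that serve neurons fell or were not called. Of 17 genes for glutamate, GABA, potassium, water and gap junctions 7 fell and none rose by limma, while 1 was higher at an unadjusted p under 0.05 (median -0.35). Slc1a2, the main glutamate transporter, fell to 16.6, 17.3 and 18.8 FPKM with IFNγ, against 28.6, 25.9 and 26.1 FPKM in controls, a change of -0.59 (SE 0.08, limma adjusted p = 7.12e-05). Slc6a11, an astrocyte GABA transporter, fell to 53.1, 36.8 and 42.7 FPKM with IFNγ, against 76.1, 60.2 and 65.1 FPKM in controls. The glycine transporter Slc6a9 changed by -0.88. The groups of all 3 were apart. The partner transporter Slc1a3 had 3.10, 23.1 and 4.90 FPKM with IFNγ, against 12.5, 7.69 and 12.8 FPKM in controls, a spread too wide for a call. Not called were also the water channel Aqp4 (-0.16), the potassium channel Kcnj10 (-0.35), the gap junction gene Gja1 (0.09) and Glul, the glutamine synthetase gene (0.13).

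Astrocyte identity genes had 5 higher and 3 lower of 21. Aldh1l1, a folate enzyme used as a pan-astrocyte marker, had 72.0, 63.3 and 66.2 FPKM with IFNγ, against 58.9, 47.3 and 52.2 FPKM in controls, and the lipid carrier gene Fabp7 rose by 0.38. S100b, a calcium-binding protein, fell to 1075, 1025 and 1047 FPKM with IFNγ, against 1304, 1307 and 1443 FPKM in controls. Ntsr2, a neurotensin receptor, fell by 0.83 on the log2 scale. Sox9, which fixes astroglial fate, gave 0.09 (limma adjusted p = 0.585). The 5 rises were 3 without IFNγ 1, IFNγ 3 or control 2, and 2 with only the compared groups in the fit. Of 20 secreted regulators of synapses 1 rose and 5 fell. Sparcl1 (hevin), which promotes synapses, fell to 409, 414 and 406 FPKM with IFNγ, against 589.8, 644 and 640.3 FPKM in controls. Thbs4, a synaptogenic thrombospondin, fell by 0.48 on the log2 scale. Mertk, a receptor for engulfment, changed by -0.48, a call lost without IFNγ 3 (limma adjusted p = 0.0577), without control 3 (0.0513) and with only the compared groups in the fit (0.134). Thbs1 rose, at low level, with 1.34, 1.29 and 1.06 FPKM with IFNγ, against 0, 0.180 and 0.345 FPKM in controls. Without IFNγ 2, control 2 or control 3, or after median-ratio scaling, 2 of these 20 rose. Of 13 Notch pathway genes 1 rose and 3 fell, and the falls were 1 after median-ratio scaling, 1 with only the compared groups in the fit and 1 without IFNγ 3, control 1 or control 2. Without control 1, 2 Notch genes rose.

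Mgp, the matrix Gla protein, which binds bone morphogenetic proteins, rose. It had 443, 301 and 345 FPKM with IFNγ, against 74.3, 80.0 and 71.9 FPKM in controls, a change of 2.24 (SE 0.46, limma adjusted p = 0.00253). The groups were apart, and the IFNγ libraries differed among themselves by more than the controls did. Around it, Id3, a target of these proteins, had 36.3, 33.1 and 31.1 FPKM with IFNγ, against 14.2, 12.1 and 19.3 FPKM in controls, while Id1 (0.04, limma adjusted p = 0.843) was not called and Id2 fell by 0.43 on the log2 scale. In all, 4 of 21 genes of that list rose and 1 fell. The call of Id2 was lost without IFNγ 2, IFNγ 3, control 1 or control 2 (limma adjusted p from 0.0578 to 0.101). Of matrix genes 3 of 21 rose, with fibronectin (Fn1) at 30.7, 21.2 and 31.0 FPKM with IFNγ, against 6.43, 7.65 and 7.63 FPKM in controls, and 2 fell. The matrix shares were 14.3% higher and 9.52% lower, against 7.11% and 7.17% of all genes tested. Metalloproteinases and inhibitors had 2 higher and 4 lower of 20, with 1 higher without IFNγ 1, control 2 or control 3, or with only the compared groups in the fit. Timp3 fell to 22.7, 21.2 and 25.1 FPKM with IFNγ, against 39.7, 35.8 and 40.9 FPKM in controls.

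Contractile and YAP target genes rose in 9 of 13 tested, with none lower (median 0.59). Tagln, an actin-binding protein, had 82.9, 62.7 and 77.5 FPKM with IFNγ, against 44.0, 29.0 and 32.1 FPKM in controls, a change of 1.08 (SE 0.15). Cnn3, a calponin, had 1051, 1080.0 and 1068 FPKM with IFNγ, against 563, 576 and 646 FPKM in controls. Ctgf had 14.8, 2.37 and 6.9998 FPKM with IFNγ, against 1.29, 0.402 and 1.18 FPKM in controls, the IFNγ libraries being spread widely. Its call was lost with only the compared groups in the fit (limma adjusted p = 0.0577). Pericyte and fibroblast markers summed to 2.81 to 13.4 FPKM with IFNγ and 1.611 to 4.599 FPKM in controls. None of 3 tested was called by limma, and 2 were higher at an unadjusted p under 0.05. Like Ctgf, the collagen gene Col1a1 was highest in IFNγ 1, with 7.19, 0.890 and 2.65 FPKM with IFNγ and 1.99, 1.27 and 0.299 FPKM in controls. The part of such cells in the list's rise was not tested. The count of 9 was 5 without IFNγ 1 and 5 with only the compared groups in the fit.

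Igfbp5, a binding protein of insulin-like growth factors, fell to 0.742, 1.22 and 1.61 FPKM with IFNγ, against 6.27, 7.65 and 7.50 FPKM in controls, a change of -1.91 (SE 0.15, limma adjusted p = 2.67e-08). Of the other 9 genes of that system Igfbp2 rose, by 0.27, a call lost without IFNγ 1, control 2 or control 3 and with only the compared groups in the fit. Lpl, the lipoprotein lipase, fell to 2.36, 3.02 and 2.32 FPKM with IFNγ, against 11.2, 8.96 and 8.31 FPKM in controls, a change of -1.55 (SE 0.16). In its list of 23 lipase, lipoprotein and efflux genes 5 rose and 2 fell, with 1 fall without IFNγ 2, IFNγ 3 or control 3, or with only the compared groups in the fit. Apol9a, an interferon-induced apolipoprotein L, had 74.7, 75.6 and 74.0 FPKM with IFNγ, against 1.65, 1.56 and 0.168 FPKM in controls, and Lcat, which esterifies cholesterol, had 22.8, 25.6 and 19.1 FPKM with IFNγ, against 4.95, 8.01 and 3.22 FPKM in controls. The main astrocyte apolipoprotein Apoe gave -0.06 (limma adjusted p = 0.929). Cholesterol synthesis had 8 lower and none higher by limma or at an unadjusted p under 0.05, of 25 tested (median -0.13), all by small steps. Lss, which closes the sterol ring, fell to 192, 185 and 180.0 FPKM with IFNγ, against 244, 223 and 259 FPKM in controls. The largest change on this list went the other way. Srebf1 had 29.1, 17.3 and 27.5 FPKM with IFNγ, against 5.98, 6.87 and 9.77 FPKM in controls. Its change of 1.58 (SE 0.91) was not called (limma adjusted p = 0.280). In the IFNβ group, which shares the spread of the fit, its libraries lay far apart. With only the compared groups in the fit 5 genes of the list fell and 1 rose.

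Of 43 cell cycle and replication genes tested 20 fell and 2 rose (median -0.45). Kif11, the spindle motor, fell to 3.05, 2.62 and 2.24 FPKM with IFNγ, against 8.82, 6.97 and 4.98 FPKM in controls, a change of -1.10 (SE 0.19, limma adjusted p = 5.88e-04). Nusap1, a spindle protein, fell to 5.01, 5.35 and 5.10 FPKM with IFNγ, against 12.7, 9.40 and 10.2 FPKM in controls. Birc5 (survivin) changed by -0.95, the cyclin Ccna2 by -0.81 and Mki67 by -0.45. The replication helicase genes were not called by limma, with differences of -0.38 for Mcm6, -0.36 for Mcm3 and -0.14 for Mcm2. The G1 genes Cdk6 (0.57) and Ccnd1 (0.34) were the 2 that rose. The count of 20 was 13 without control 1 and 13 with only the compared groups in the fit.

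Stress genes rested on controls that differed. Hmox1, the heme oxygenase, had 638, 949 and 823 FPKM with IFNγ, against 886, 1574 and 1787 FPKM in controls. Control 1 lay below controls 2 and 3 and within the IFNγ range, so the groups overlapped. Hspb1, a small heat shock protein, showed the same order, with 2.61, 5.15 and 2.49 FPKM with IFNγ, against 5.11, 13.6 and 17.0 FPKM in controls. So did Trib3, a gene of the integrated stress response, with 2.03, 3.28 and 4.65 FPKM with IFNγ, against 4.25, 8.79 and 12.5 FPKM in controls. The call of Hmox1 was lost without IFNγ 1 (limma adjusted p = 0.070), control 2 (0.0665) or control 3 (0.0717), and that of Trib3 without IFNγ 1 (limma adjusted p = 0.0663) or control 3 (0.0674). With only the compared groups in the fit none of the 3 was called (limma adjusted p from 0.076 to 0.132). Srxn1, an antioxidant enzyme, had 43.1, 59.2 and 55.9 FPKM with IFNγ, against 68.5, 105 and 103 FPKM in controls without overlap. In the antioxidant and metallothionein list 4 of 20 rose and 5 fell: the metal-binding Mt2A had 1030.4, 975 and 1017 FPKM with IFNγ, against 384, 304 and 354 FPKM in controls and the mitochondrial Sod2 rose by 0.50, while the cystine transporter Slc7a11 changed by -0.86. The 5 falls were 3 without IFNγ 3 or control 3, and 2 with only the compared groups in the fit, where Slc7a11 was not called (limma adjusted p = 0.0911). Heat shock chaperones had 1 higher, Cryab (0.62), and 3 lower of 20, with 1 lower with only the compared groups in the fit. Their shares were 5% and 15%, against 7.11% and 7.17% of all genes tested. Endoplasmic reticulum and integrated stress genes had 3 higher and 3 lower of 20, with 8 lower without control 1, 1 higher without IFNγ 3, and 1 higher and 1 lower with only the compared groups in the fit. Hspa5 (BiP) rose by 0.29.

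Among the 12 lowest changes under the naming rule were Bsg, Igfbp5, LOC100910558, Snhg4, Lpl, Car3, Gem, Kif11, Efhd1, Adamts1 and Sapcd2. The call of LOC100910558 was lost without IFNγ 2, IFNγ 3, control 2 or control 3 (limma adjusted p from 0.058 to 0.0828). Car3, a carbonic anhydrase, fell to 10.8, 6.42 and 6.50 FPKM with IFNγ, against 21.4, 18.04 and 18.5 FPKM in controls. Gem, a small GTPase, fell to 4.44, 5.47 and 4.53 FPKM with IFNγ, against 10.4, 12.3 and 14.8 FPKM in controls, and Efhd1, a calcium-binding protein, to 6.09, 6.21 and 6.28 FPKM with IFNγ, against 15.3, 13.5 and 14.4 FPKM in controls. The groups of these 3 did not overlap, but the naming rule required that, so it adds no support. Snhg4, a host of small nucleolar RNAs, changed by -1.70 (SE 0.26), against a deposited log2 change of -0.43 that the authors' table does not call. Bsg, a membrane glycoprotein, gave the lowest value of the 12 but jumped within the control group, with 0.128, 0.162 and 0 FPKM with IFNγ, against 61.8, 63.2 and 0.179 FPKM in controls, and lost its call without control 1 or 2 or any IFNγ library (limma adjusted p from 0.0925 to 0.195). In 55 genes a library of either group was under 1% of another of the same group that had 5 FPKM or more, and 5 of these were called. One is Marcksl1, named after its values were seen, with 123, 0 and 0 FPKM with IFNγ, against 116, 116 and 117 FPKM in controls and a call at -4.55 although the groups overlapped. An exact 0 of that kind may be a failed estimate.

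IFNβ shares many targets with IFNγ, and the direct contrast between the 2 treated groups shows where IFNγ stood apart. Each interferon was given at a single dose, and the IFNγ dose is unsettled. The kind of interferon and its dose therefore cannot be told apart in this contrast. Between them 2581 genes (25.1%) were called, 1987 higher (19.3%) and 594 lower (5.77%) with IFNγ. This split depends on the scaling, with 53.5% of 2004 called genes higher after median-ratio scaling, against 77.0% without it. Of the 253 genes that rose by 1 or more with IFNγ over control, 94 were higher with IFNγ than with IFNβ, 79 were lower and 80 were not called.

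Several genes named above, class II chains among them, were higher with IFNγ than with IFNβ. Cd74 was at 163 ± 4.58 FPKM with IFNγ and 3.36 ± 0.686 FPKM with IFNβ (SD, n = 3 each), a difference of 5.24 (SE 0.14, limma adjusted p = 1.58e-14). RT1-Da was at 59.4 ± 3.32 FPKM with IFNγ and 2.33 ± 0.401 FPKM with IFNβ, a difference of 4.19. Ubd gave 265 ± 38.3 FPKM with IFNγ and 14.3 ± 4.10 FPKM with IFNβ, and Irf8 13.3 ± 1.69 FPKM with IFNγ and 0.208 ± 0.181 FPKM with IFNβ. Mgp stood highest with IFNγ (363 ± 72.9 FPKM), lowest with IFNβ (10.6 ± 4.404 FPKM) and between them in controls (75.4 ± 4.14 FPKM). Cxcl9 (2.77, SE 0.15), Serping1 (1.47, SE 0.12), Icam1 (1.42, SE 0.09) and Gfap (1.49, SE 0.08) were also higher with IFNγ than with IFNβ on the log2 scale. Irf1 was at 324 ± 14.3 FPKM with IFNγ and 116 ± 29.1 FPKM with IFNβ (limma adjusted p = 1.09e-06). Gfap was at 398 ± 24.0 FPKM with IFNγ and 142 ± 11.5 FPKM with IFNβ. Controls had 421.5, 418.8 and 479.7 FPKM, and Gfap was not called between IFNγ and control. Its difference between the interferons is therefore not a rise with IFNγ.

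Other named genes were lower with IFNγ than with IFNβ, as was the class II processing protease Ctss (-1.13, SE 0.20). Irf7 was at 14.7 ± 4.64 FPKM with IFNγ and 2336 ± 99.6 FPKM with IFNβ, a difference of -7.27 (SE 0.23, limma adjusted p = 1.91e-13). Isg15 was at 132 ± 11.8 FPKM with IFNγ and 3666 ± 318 FPKM with IFNβ. Usp18 (-5.14), Ifit1 (-5.15), Lgals9 (-5.47) and Cfb (-4.70) were also lower with IFNγ than with IFNβ. Cxcl10 differed in the same direction, by -2.34 (SE 0.25), unlike Cxcl9. Several strongly raised genes were not called between the interferons: Gbp2 differed by -0.09 (SE 0.10, limma adjusted p = 0.528), RT1-A2 by 0.05 (SE 0.07, limma adjusted p = 0.621) and B2m by 0.11 (SE 0.10, limma adjusted p = 0.454).

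**Figure D4:**
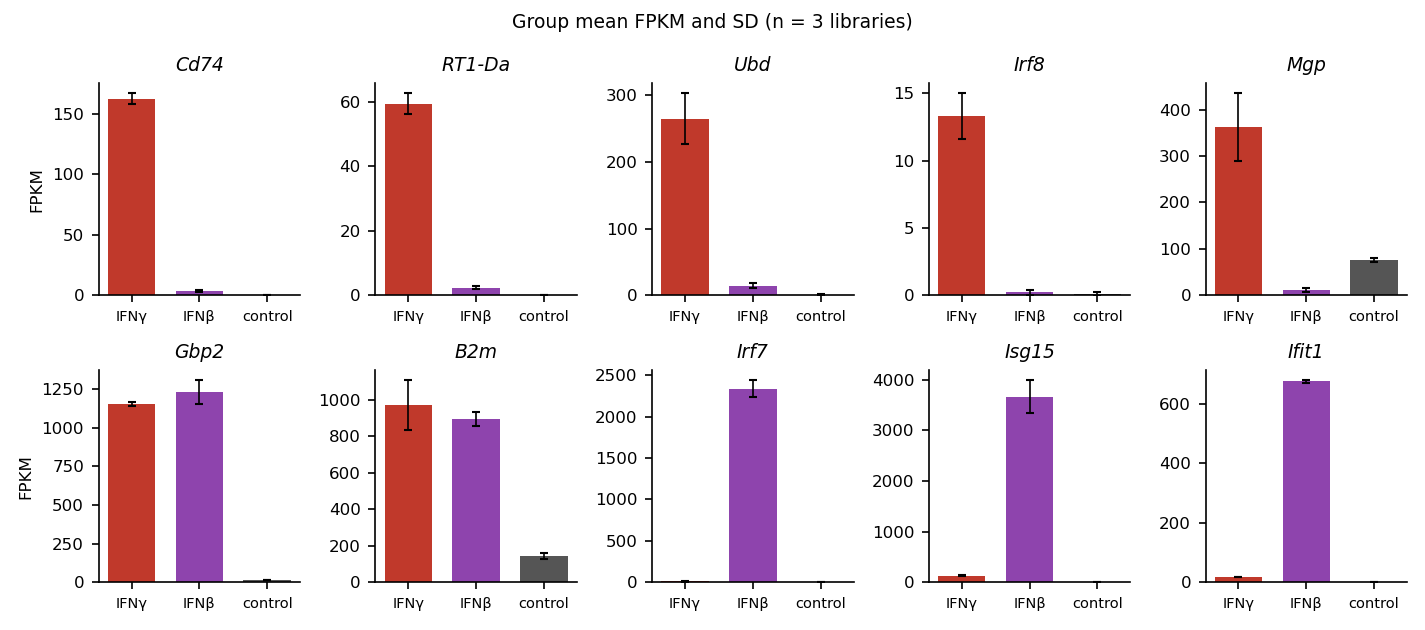
Bars give the mean FPKM of 3 libraries with IFNγ (red), IFNβ (purple) and PBS control (grey), error bars the SD, each panel with an axis from 0. Cd74, RT1-Da, Ubd, Irf8 and Mgp are highest with IFNγ, Gbp2 and B2m, not called between the interferons, are high with both, and Irf7, Isg15 and Ifit1 are highest with IFNβ.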

How the data were processed

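Total RNA was made into cDNA with SMART-seq HT and libraries with Nextera XT and sequenced on a NovaSeq6000, per the labels' protocols. HISAT2, StringTie and DESeq2, without versions, and the build mm10 are named in the submitters' processing notes, although the identifiers are rat Ensembl genes. The build therefore stays uncertain, and no coordinate was taken from the deposited files. The authors deposited one table of FPKM values for 18 libraries in 6 groups of 3, and beside it log2 fold changes and adjusted p-values of their own comparisons. FPKM hide depth, so no counting interval can be given. Genes in the table reach a mean of at least 0.501 FPKM. The table has 10434 rows, of which 3 have no gene name and were left out (up to 0.012% of a library's FPKM), and 15 symbols that look like numbers were kept under their identifiers.

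Genes that reached 1 FPKM in 3 or more libraries were fitted with limma 3.58.1 in R 4.3.3 on log2(FPKM + 1), with trend, one mean per group and all 18 libraries sharing the spread. Tests were two-sided, with Benjamini-Hochberg adjustment over all 10296 genes. The script was tested on simulated data. Alternatives were no filter, a pseudocount of 0.1, median-ratio scaling, only the compared groups in the fit, the replicate number as a block, and leaving out each library.

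Genes named by rule were the 12 highest and 12 lowest called changes of 1 or more with a mean of 5 FPKM or more in the higher group and no overlap between groups, up to 6 called members of each gene list with the largest change, and a set of known interferon targets. Uncalled list members and further called ones were named after their values were seen. Some genes that the rule names are not reported here. Members and lists were chosen with earlier results of these data known. Promoters came from a RefSeq table on GRCr8, matched by symbol.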

Additional observations from a re-analysis of the deposited data

Results flagged for a closer look

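The series also holds astrocytes treated with TNFα, IL1α and C1q together (TIC), with and without IFNγ. For 11 genes the IFNγ effect in the presence of TIC was set against its effect alone by the interaction term of the same limma fit, in which 1427 of all genes (13.9%) were called, and 5 of the 11 were called. Gbp2 rose by 3.41 with TIC present and by 6.14 alone, a difference of -2.73 (limma adjusted p = 1.17e-09). Its means were 3306 ± 85.9 FPKM with IFNγ and TIC and 310.5 ± 17.8 FPKM with TIC only (SD, n = 3 each). For Psmb9 the changes were 3.58 with TIC and 5.34 alone, a difference of -1.76 (limma adjusted p = 5.93e-08). Serping1 differed by -1.21 (limma adjusted p = 0.000142) and Irf1 by -0.75 (limma adjusted p = 0.0252). These smaller changes were counted from higher levels. Means with TIC only and in controls were 310.5 and 15.6 FPKM for Gbp2 and 50.8 and 12.1 FPKM for Psmb9. They were 85.0 and 14.4 FPKM for Serping1 and 49.6 and 17.4 FPKM for Irf1. With IFNγ and TIC, Psmb9, Serping1 and Irf1 had means of 619, 690 and 532 FPKM, against 527, 280 and 324 FPKM with IFNγ alone. Cxcl9 differed by 1.43 the other way (limma adjusted p = 0.000189), but by -0.68 with a pseudocount of 0.1. Socs1, Cd74, B2m, Cxcl10, Cd274 and Gfap were not called.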

How the results depend on the processing

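With only the compared groups in the fit, which leaves fewer libraries to estimate the spread, 804 genes were called between IFNγ and control, 315 lower and 22 lower by 1 or more. A pseudocount of 0.1 gave 80 lower by 1 or more, since low genes then change more. No filter gave 1469 called genes, a pseudocount of 0.1 gave 1348 and median-ratio scaling 1413. When single libraries were left out, 1091 to 1351 genes were called, 625 to 727 higher and 466 to 708 lower, with 241 to 256 higher and 30 to 47 lower by 1 or more. The low of 466 came without IFNγ 3, where 1091 were called. The contrast of IFNγ with IFNβ gave 1845 to 2441 and the interaction with TIC 1074 to 1436. Replicate numbers are shared by the groups, but same-numbered libraries deviated together with correlations of only 0.0363, 0.126 and -0.0041, so they were not taken as pairs. With the replicate block 1475 genes were called, 1388 of them shared with the fit without it, neither TRIM fall was called, 5 endoplasmic reticulum genes were lower against 3, and the contrast with IFNβ gave 2580 and the interaction 1452. Of 231 genes named by rule, 189 kept direction and call under every alternative run, and none of the 231 reversed. Apart from the fixed set, these were picked because they were called in the same libraries. The count therefore cannot serve as a check on those calls, and it leaves out the genes named after their values were seen. The interaction values without a call changed sign for Cd74, with 0.028 after median-ratio scaling and -0.27 to 0.048 when single libraries were left out (0.048 without TIC 1), and for B2m, with -0.079 to 0.12 (below 0 without TIC 2, IFNγ 1, control 2 or control 3). That of Cxcl9 was -0.68 with a pseudocount of 0.1 (limma adjusted p = 0.563). The interaction call of Irf1 was lost after median-ratio scaling (limma adjusted p = 0.0551). The causes were not tested.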
